A study of Mus musculus with 8 samples.

Results

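The mu and pi classes are families of cytosolic glutathione S-transferases, and in the mouse they comprise Gstm1 to Gstm7 and Gstp1 to Gstp3. These 10 genes (7 mu, 3 pi) were found by symbol among the 54418 Ensembl genes of the deposited tables. Of the 10, 7 held enough counts to be tested and stood among 16011 tested genes. Gstm3, Gstm6 and Gstp3 did not pass the filter on low counts, so their values are given without a test.

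RNA had been sequenced from 8 libraries of melanocyte stem cells, which supply the hair follicle with pigment cells, taken from mouse dorsal skin at postnatal day 21. The 4 control libraries carried TRE-H2B-GFP, Dct-rtTA and Bmi1fl/fl, and the 4 Bmi1-deleted libraries carried Tyrosinase-Cre in addition. All mice were of a mixed C57Bl-6 and 129Sv background and ate doxycycline pellets, so floxed Bmi1, the GFP reporter and doxycycline were common to both groups while Cre was present in one group only. An effect of Cre itself cannot be told apart from that of the deletion. Cre was driven by the tyrosinase promoter and the sort took live, non-autofluorescent, Dct-GFP+ cells. The labels do not say that replicates came from separate animals, so p-values measure the spread between these samples, which may be technical.

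Libraries held 8882656 to 10368174 counts, and 3 counts, the upper limit that a count of 0 allows, corresponded to 0.297 to 0.338 CPM (counts scaled to 1000000 per library and between libraries by TMM). That limit covers counting error only. Bmi1 had 83.0 ± 9.98 CPM in control and 69.2 ± 0.875 CPM in Bmi1-deleted libraries (SD, n = 4; log2 change −0.26, edgeR adjusted p = 0.607). Every Bmi1-deleted library lay below every control library (exact two-sided permutation p = 0.0286), and no source used here says which exons were removed. On the TPM scale, Bmi1 stood at 44.0% of control (30.4 ± 6.14 against 13.4 ± 4.84 TPM, SD, n = 4, without overlap, limma log2 change −1.17, adjusted p = 0.519). That scale leaned downwards as a whole, since TPM groups failed to overlap downwards in 3.61% of all tested genes and upwards in 0.531%. Cdkn2a, a cell cycle inhibitor locus silenced by Bmi1, had 0 counts in every control library and 5.92 ± 2.31 CPM in Bmi1-deleted libraries (SD, n = 4; edgeR adjusted p = 0.00736). All 14 pigment cell markers were detected, with a summed level of 9383 to 15541 CPM in control and 5323 to 10892 CPM in Bmi1-deleted libraries. The 18 dermal fibroblast markers were detected too, at a summed 5367 to 9207 CPM in control and 8984 to 19098 CPM in Bmi1-deleted libraries. In such bulk samples, fewer cells of a type and less RNA per cell cannot be told apart.

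Glutathione S-transferases join the thiol of glutathione to electrophilic molecules, which makes those molecules more soluble and ready for export. Pi class enzymes are also known to bind JNK, a stress kinase, and both classes are known as targets of the antioxidant regulator NRF2. In pigment cells, melanin synthesis passes through reactive quinones, which glutathione can trap.

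Gstp1 and Gstp2 are close copies, and their sequences are shown first because they bear on how far reads could be assigned to one or the other. The mu genes occupy 149 kb of chromosome 3 in mm10 (chr3:107895821-108044894), with Gstm5 on the plus strand and the other mu genes on the minus strand. The pi genes occupy 24.2 kb of chromosome 19 (chr19:4035407-4059569), all on the minus strand. In the GENCODE M21 transcripts, the coding sequences of Gstp1 and Gstp2 each have 633 bases and differ by 12 substitutions, an identity of 98.1%. The first 90 coding bases hold 6 of the 12 substitutions, set in capitals:
Gstp1: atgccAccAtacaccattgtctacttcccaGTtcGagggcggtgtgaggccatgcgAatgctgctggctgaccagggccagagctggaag
Gstp2: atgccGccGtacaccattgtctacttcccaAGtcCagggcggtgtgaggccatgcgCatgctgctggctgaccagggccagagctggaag

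The final 303 coding bases, positions 331 to 633, were identical between them. Gstp3 was more distant, with 73.0% coding identity to Gstp1. Among mu genes, Gstm1 shared 89.5% of its coding bases with Gstm3 and 86.0% with Gstm2, while Gstm5 was the most distant from Gstm1 at 69.8%.

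The same question was asked of whole transcripts by counting 31-base words found in no other gene of the annotation. For Gstp1 that share was 61.5%, and for Gstp2 it was 39.7%, the lowest of the 10 genes. Gstp1 shared 639 words with Gstp2, which were 38.5% of the words of Gstp1 and 54.8% of those of Gstp2. It also shared 409 words with the pseudogene Gstp-ps, and Gstp2 shared 474 with it (40.6% of the words of Gstp2). Among mu genes the share ran from 62.3% for Gstm3 and 71.2% for Gstm1 to 97.4% for Gstm7. Gstm1 shared 339 words (22.6% of its own) with the pseudogene Gstm2-ps1 and 195 with Gstm3. The division of reads between Gstp1 and Gstp2 is therefore an estimate by the quantification, and the values of Gstp2 in particular are uncertain. The pi class sum does not depend on that division, but it may depend on which reads were assigned to Gstp-ps. In the same way, Gstm1 and the mu class sum may depend on which reads were assigned to Gstm2-ps1.

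**Figure D1:**
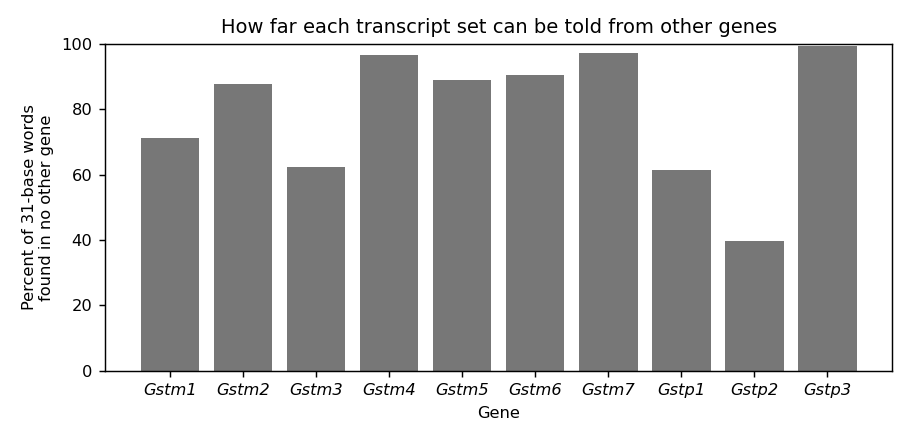
Share of the 31-base words of each gene's annotated transcripts (percent, vertical axis) that occur in no other gene, for the 10 genes (horizontal axis); each bar is 1 gene. Gstp2 has the lowest share at 39.7% and Gstp3 the highest at 99.5%.

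The stretches before the RefSeq start sites of the 3 pi genes are shown because Gstp1 and Gstp2 share a motif there and Gstp3 does not. Each has 100 bases from RefSeq on GRCm38.p6, minus strand, at chr19:4037913-4038012, chr19:4042222-4042321 and chr19:4059448-4059547, with TGAGTCA in capitals:
Gstp1: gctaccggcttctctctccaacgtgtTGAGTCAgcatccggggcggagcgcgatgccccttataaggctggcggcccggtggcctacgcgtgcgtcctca
Gstp2: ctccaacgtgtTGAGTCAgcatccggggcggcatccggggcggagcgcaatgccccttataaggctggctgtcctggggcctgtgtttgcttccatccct
Gstp3: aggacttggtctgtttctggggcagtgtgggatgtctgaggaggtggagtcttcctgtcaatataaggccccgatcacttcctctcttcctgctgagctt

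The GENCODE M21 bounds of these genes reach further upstream than the RefSeq starts, to 4037985 for Gstp1, 4046023 for Gstp2 and 4059569 for Gstp3. By those bounds the printed stretch of Gstp1 lies partly, and those of Gstp2 and Gstp3 wholly, within the annotated gene. Over 250 bases upstream of the RefSeq starts, an alignment of Gstp1 and Gstp2 held 207 identical bases (78.1% of its columns). One of Gstp1 and Gstp3 held 136. TGAGTCA, the letters of an AP-1 site, was searched on both strands after these sequences had been seen. It lay 74 bases before the RefSeq start of Gstp1 and 89 before that of Gstp2, and as TGACTCA on the given strand 176 before that of Gstm5. Of 32851 RefSeq promoter windows of the same length, 5.20% held it. TGACNNNGC, the core of the antioxidant response element, was also searched on both strands and occurred in 12.4% of windows. Gstm5 held it 42 bases before its start, and 1 of the 2 Gstm7 windows held it 129 bases before the start. The windows of the other 8 genes did not hold TGACNNNGC. In Gstp1 and Gstp2 the capitals run on as TGAGTCAgc, which differs from TGACNNNGC only by a G in place of its C. A form of the core that allows either letter there was not searched. All 10 genes had a RefSeq window.

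Gstp1 (ENSMUSG00000060803, chr19:4035407-4037985) was the most abundant of the 10 genes and the only one whose groups did not overlap. Its scaled counts were 110, 119, 111 and 182 CPM in control libraries 1 to 4. In Bmi1-deleted libraries 1 to 4 they were 67.3, 80.6, 84.2 and 103 CPM. Every Bmi1-deleted library lay below every control library, and control library 4 stood well above the other control libraries. The mean was 130 ± 34.8 CPM in control and 83.7 ± 14.6 CPM in Bmi1-deleted libraries (SD, n = 4), or 64.2% of control.

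Despite this separation, Gstp1 missed the threshold once p was adjusted over all tested genes (log2 change −0.64, SE 0.18; edgeR unadjusted p = 0.00355, adjusted p = 0.293). The exact two-sided permutation p of its scaled counts was 0.0286, the smallest that 70 assignments can give. With the replicate number as a block, Gstp1 passed (log2 change −0.62, SE 0.11, edgeR adjusted p = 0.00662). Since the groups did not overlap, any pairing of the libraries gives a lower CPM in 4 of 4 pairs. The same-numbered pairs differed by log2 values of −0.71, −0.56, −0.40 and −0.83. The call thus differed between the fits with and without the block.

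Other settings kept the direction of Gstp1 and differed in the call. Apart from leaving out libraries, 12 settings gave log2 changes from −0.84 to −0.36, of which 2 passed, the block and the fit without a filter on low counts (edgeR adjusted p = 0.00294). Leaving out 1 library at a time gave −0.76 to −0.43 with edgeR adjusted p from 0.172 to 0.673, and 0 of 8 such fits passed. Without control library 4 the log2 change was −0.43 (edgeR adjusted p = 0.626). Under the block with 1 pair left out, 2 of 4 fits passed, with adjusted p from 0.0176 to 0.0596. DESeq2 gave −0.64 (adjusted p = 0.12). With sex as a covariate, inferred per library from Xist against Y-linked genes, the log2 change was −0.74 (edgeR adjusted p = 0.102). The libraries held both inferred sexes, and how these fell between the groups is not given here.

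**Figure D2:**
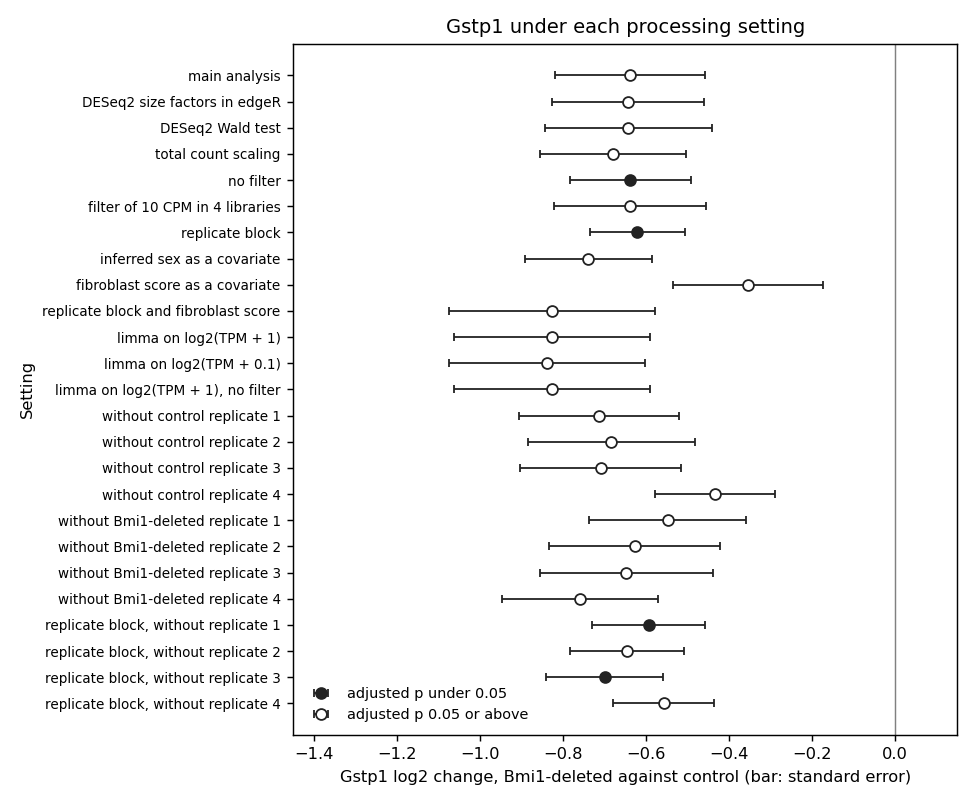
Log2 change of Gstp1, Bmi1-deleted against control (horizontal axis), under each processing setting (vertical axis); points are estimates, bars standard errors, and filled points have an adjusted p under 0.05. All estimates lie below 0, from −0.84 to −0.36, and most points are open.

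The length-normalised levels gave a similar direction. Gstp1 had 77.3, 115, 55.6 and 81.4 TPM (transcripts per 1000000, which divides counts by length) in control libraries 1 to 4, and 40.8, 42.0, 46.6 and 49.2 TPM in Bmi1-deleted libraries 1 to 4. Groups again did not overlap (82.4 ± 24.7 against 44.6 ± 3.95 TPM, SD, n = 4; exact two-sided permutation p = 0.0286). Among all tested genes, TPM groups failed to overlap downwards in 3.61% and upwards in 0.531%, so the TPM scale as a whole leaned downwards. A single predicted gene, Gm23935, accounted for 73.7% to 85.6% of TPM. On log2(TPM + 1), limma gave a Gstp1 change of −0.83 (adjusted p = 0.707).

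The fibroblast and pigment marker levels given above differed between the groups as well. In edgeR under the block, 7 of 16 tested fibroblast markers passed upwards and 10 of 14 pigment markers passed downwards. Under the block, 1.71% of all tested genes passed upwards and 0.706% downwards. Without the block, 0 of either list passed, where 0.0874% of all genes passed upwards and 0.00625% downwards. With a fibroblast marker score as a covariate, the log2 change of Gstp1 was −0.36 (SE 0.18, edgeR adjusted p = 0.538), and with that score and the block it was −0.83 (edgeR adjusted p = 0.201). Schwann cell markers summed to 2344 to 4184 CPM in control and 4124 to 5502 CPM in Bmi1-deleted libraries, and 5 of 10 passed upwards under the block. Immune markers summed to 50.3 to 75.5 and 80.0 to 114 CPM, with 0 of 6 tested passing. Of 11 basal keratinocyte and hair follicle markers, summed at 2388 to 2722 and 2283 to 4147 CPM, 3 passed upwards under the block. Suprabasal keratinocyte and sebocyte markers summed to 354 to 590 and 331 to 1012 CPM (median log2 change 0.96, 1 of 8 tested passing upwards under the block). Endothelial and mural markers summed to 470 to 629 and 482 to 731 CPM (median log2 change 0.98, 0 of 7 passing). Adipocyte markers summed to 0 to 2.56 and 1.98 to 15.0 CPM. Pigment cell markers summed to 9383, 10617, 13265 and 15541 CPM in control libraries 1 to 4. In Bmi1-deleted libraries 1 to 4 they summed to 5661, 5323, 9244 and 10892 CPM (median log2 change −0.73). Control library 4 was the highest for these markers, as for Gstp1. No fit took a pigment marker score as a covariate. The part of the pigment list and of these 6 marker lists in the Gstp1 result was not tested.

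Gstp2 (ENSMUSG00000038155, chr19:4040285-4046023), the close copy with much lower catalytic activity, had 10.0, 4.20, 7.56 and 14.6 CPM in control libraries 1 to 4. In Bmi1-deleted libraries it had 8.78, 5.14, 10.5 and 4.29 CPM. The groups overlapped across most of their range. The log2 change was −0.34 (SE 0.42, edgeR adjusted p = 0.913). It ran from −0.59 without Bmi1-deleted library 3 to −0.018 without control library 4, and was −1.98 with the block and the fibroblast score. Gstp3 (ENSMUSG00000058216, chr19:4057477-4059569) was close to absent, with 4 counts in control library 4, 2 and 3 counts in Bmi1-deleted libraries 2 and 4, and 0 in the other 5 libraries.

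Gstm1 (ENSMUSG00000058135, chr3:108012255-108017973) was the leading mu gene and varied little between libraries. It had 46.7, 42.3, 49.5 and 50.1 CPM in control libraries 1 to 4 and 49.3, 39.5, 44.2 and 48.3 CPM in Bmi1-deleted libraries 1 to 4. The groups lay over each other, with means of 47.2 ± 3.54 and 45.3 ± 4.43 CPM (SD, n = 4). The log2 change was −0.06 (SE 0.14, edgeR adjusted p = 0.967), and the exact two-sided permutation p was 0.543.

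Gstm5 (ENSMUSG00000004032, chr3:107895821-107898686) had 12.4, 11.2, 11.2 and 10.5 CPM in control and 10.4, 7.31, 15.8 and 5.41 CPM in Bmi1-deleted libraries. The Bmi1-deleted libraries spread both above and below the narrow control range (log2 change −0.21, SE 0.33, edgeR adjusted p = 0.933). The change ran from −0.55 without Bmi1-deleted library 3 to −0.022 without Bmi1-deleted library 4, and was −0.99 with the block and the fibroblast score. Gstm5 overlaps the antisense gene 4933431E20Rik, which held 552 counts over the control and 681 over the Bmi1-deleted libraries. In the word count given above, 88.9% of the words of Gstm5 occurred in no other gene. It shared 148 words (11.1% of its own) with 4933431E20Rik. No source used here says whether counting used strand, so reads from that shared stretch may not be separable.

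Gstm2 (ENSMUSG00000040562) had 8.99, 0.512, 3.09 and 5.74 CPM in control and 6.04, 3.85, 2.32 and 3.83 CPM in Bmi1-deleted libraries. Control library 2 was the lowest of all, and the groups overlapped. Its log2 change was −0.19 (SE 0.65, edgeR adjusted p = 0.979) and turned to 0.14 under the block.

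Gstm4 (ENSMUSG00000027890) had 2.75, 3.59, 2.24 and 4.84 CPM in control and 2.63, 2.87, 2.21 and 1.24 CPM in Bmi1-deleted libraries. Both groups overlapped, and Bmi1-deleted library 4 was the lowest (log2 change −0.58, SE 0.54, edgeR adjusted p = 0.872). For Gstm4 the change was −0.35 without control library 4, −0.14 under the block without pair 4 and −2.25 with the block and the fibroblast score. Gstm7 (ENSMUSG00000004035) had 0.106, 1.02, 1.38 and 1.35 CPM in control and 1.10, 4.94, 0 and 0 CPM in Bmi1-deleted libraries. Bmi1-deleted libraries lay both above and below the control range, and the standard error of Gstm7 was the widest of the tested members (log2 change 0.65, SE 1.29, edgeR adjusted p = 0.955). Its sign turned under the block (−0.50) and without Bmi1-deleted library 2 (−1.37).

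Gstm6 (ENSMUSG00000068762) averaged 0.545 CPM in control and 0.746 CPM in Bmi1-deleted libraries. Gstm3 (ENSMUSG00000004038) had 0 counts in all control libraries, and 4 and 5 counts in Bmi1-deleted libraries 1 and 2. Those counts are near the limit of 3 that a 0 allows, and no fold is given.

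Of the 7 tested members, 0 passed in the analysis without a block, where 0.00625% of all tested genes passed downwards and 0.0874% upwards. At an unadjusted edgeR p under 0.05, 1 of 7 was lower, Gstp1, where 3.45% of all genes were lower and 4.82% higher. Under the block, 1 of 7 passed downwards, Gstp1, against 0.706% of all genes downwards and 1.71% upwards. In the fit without a filter, 1 of 10 members passed downwards, again Gstp1, against 0.346% of all genes downwards and 0.741% upwards. Fitted together with the fibroblast score, 0 of 7 passed, against 0.0437% of genes downwards and 0.15% upwards. DESeq2 called 0 of 8 members, against 0.252% of genes lower and 0.514% higher. The limma fit on log2(TPM + 1) also called 0 of 8, against 0.00534% in each direction. Scaled counts failed to overlap downwards in 1 of 7 members and in 2.39% of all genes. The median log2 change was −0.19 over the 5 tested mu genes and −0.49 over the 2 tested pi genes, beside 0.01 over all tested genes.

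**Figure D3:**
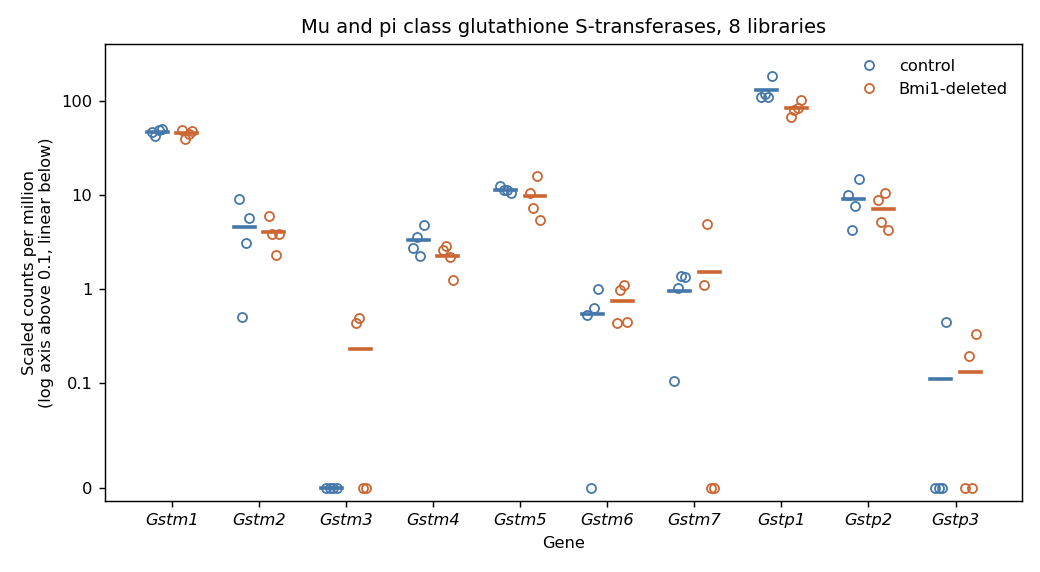
Scaled counts, CPM (vertical axis, logarithmic above 0.1 and linear below) of the 10 genes (horizontal axis) in 4 control and 4 Bmi1-deleted libraries; each open circle is 1 library and each bar a group mean. The groups separate for Gstp1, at 110 to 182 CPM against 67.3 to 103 CPM, and overlap for the other 9 genes.

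Summed per class, the mu genes had 71.5, 58.6, 68.0 and 73.5 CPM in control libraries 1 to 4, and 70.3, 60.0, 65.7 and 59.2 CPM in Bmi1-deleted libraries 1 to 4. These sums overlapped, with means of 67.9 ± 6.59 and 63.8 ± 5.23 CPM (SD, n = 4), or 94.0% of control. The pi genes had 120, 123, 118 and 197 CPM in control and 76.1, 86.0, 94.7 and 107 CPM in Bmi1-deleted libraries. The pi sums did not overlap, with means of 140 ± 38.5 and 91.0 ± 13.3 CPM (SD, n = 4), or 65.2% of control. Without control library 4 the log2 ratio of the pi means went from −0.62 to −0.40. Sums over chosen members were not tested. With the pseudogene Gstp-ps counted in, the pi log2 ratio was −0.61.

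On the TPM scale, control and Bmi1-deleted mu sums were 22.5 ± 5.50 and 17.6 ± 3.42, with overlap. The pi sum was 87.1 ± 24.4 and 47.9 ± 3.84 TPM (SD, n = 4), without overlap. Once Gm23935 was removed and TPM were rescaled, the log2 ratio was −0.12 for the mu and −0.62 for the pi class, against −0.36 and −0.86 before. The pi class made up 62.6%, 67.7%, 63.5% and 72.8% of the CPM of both classes in control libraries and 51.9%, 58.9%, 59.0% and 64.4% in Bmi1-deleted libraries. These percentages overlapped between groups, and the difference between the classes was not tested.

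**Figure D4:**
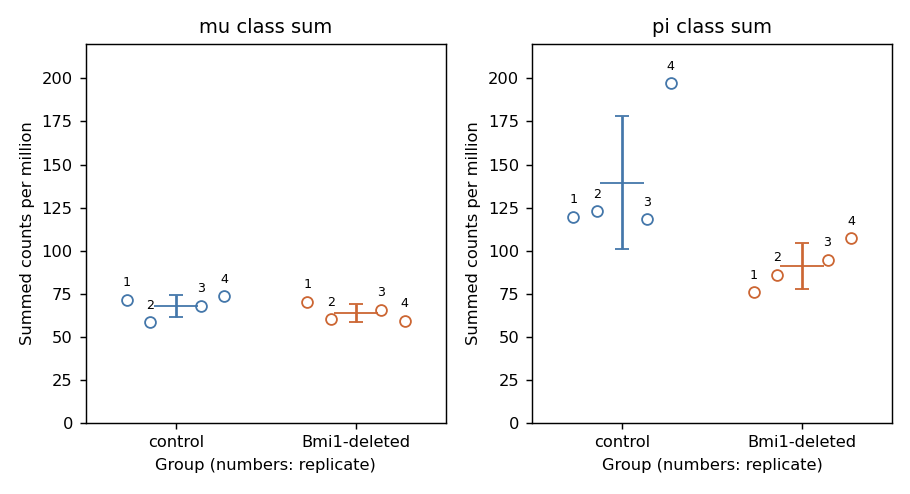
Summed CPM (vertical axis) of the mu class (left) and pi class (right) in control and Bmi1-deleted libraries; circles are libraries with their replicate numbers, horizontal bars group means and vertical bars SDs (n = 4). The mu sums overlap, while the pi sums lie at 118 to 197 CPM in control and 76.1 to 107 CPM in Bmi1-deleted libraries.

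Per length, Gstp1 led the order of levels in control libraries and stood at the 98.4th percentile of the tested genes. By control mean it also ranked first of 33 transferase and related genes, ahead of the alpha class gene Gsta2 at 58.3 ± 15.0 TPM (SD, n = 4). The 2 genes overlapped, since in control library 3 Gsta2 had 74.4 and Gstp1 55.6 TPM. Gstm1 followed among the members with 13.96 ± 3.04 TPM, then Gstm5 with 5.53 ± 2.41 and Gstp2 with 4.64 ± 1.63 (SD, n = 4). Gstp1, Gstm1 and Gstm5 did not overlap each other over the control libraries, whereas Gstm5 and Gstp2 did. Gstm2 had 1.63, Gstm4 0.742, Gstm7 0.428, Gstm6 0.153, Gstp3 0.0966 and Gstm3 0 TPM, and neighbours in this lower part of the order overlapped.

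The makeup of each class is given as shares of its TPM. Gstp1 held 94.3% of the pi class TPM in control and 93.1% in Bmi1-deleted libraries, and Gstp2 held 5.62% and 6.70%. Gstm1 held 62.5% and 64.3% of the mu class TPM, Gstm5 23.9% and 21.9%, and Gstm2 7.43% and 7.35%. The library ranges of all these shares overlapped between groups.

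**Figure D5:**
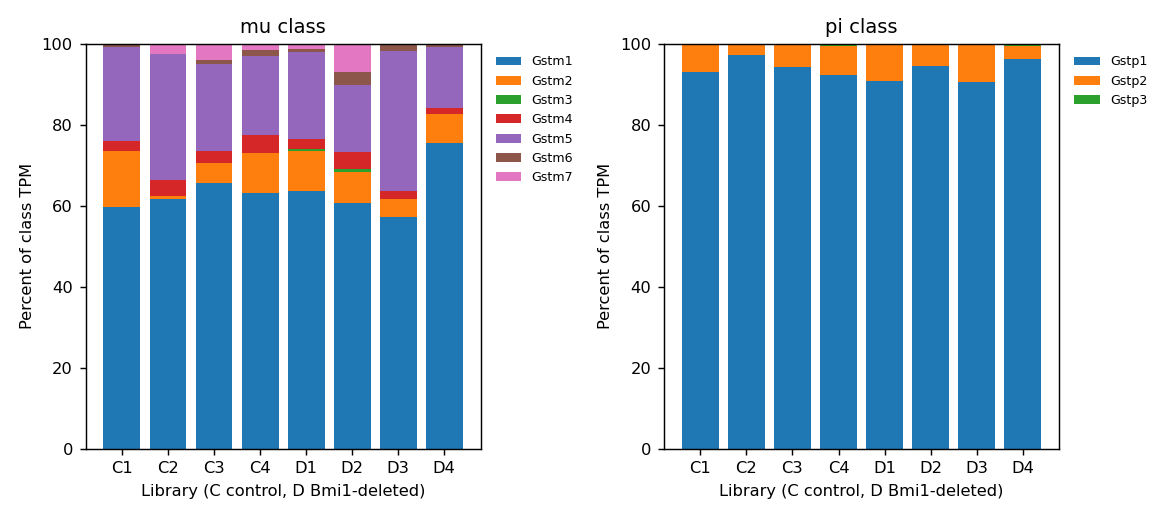
Share of the class TPM (percent, vertical axis) held by each gene in the mu class (left) and the pi class (right), in control (C1 to C4) and Bmi1-deleted (D1 to D4) libraries; each stacked bar is 1 library. Gstp1 fills most of every pi bar, and Gstm1 followed by Gstm5 most of every mu bar.

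Genes that flank the 2 clusters did not pass in either fit, which is near the share of all genes. Of all tested genes, 0.00625% passed downwards and 0.0874% upwards without the block, and 0.706% and 1.71% with it. The 3 protein-coding genes on each side of the mu cluster were Ahcyl1, Csf1 and Eps8l3, and Ampd2, Gnat2 and Gnai3. Those around the pi cluster were Gm49405, Doc2g and Ndufv1, and Cabp2, Cdk2ap2 and Pitpnm1. Ndufv1, a subunit of respiratory complex I next to the pi cluster, had 51.6 ± 5.11 CPM in control and 49.1 ± 2.79 CPM in Bmi1-deleted libraries (SD, n = 4; edgeR adjusted p = 0.952). Ampd2, an AMP deaminase beside the mu cluster, had 28.4 ± 3.64 and 35.8 ± 6.27 CPM (SD, n = 4; edgeR adjusted p = 0.685). Eps8l3, Gnat2 and Cabp2 held too few counts to be tested.

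Other genes of the glutathione pathway were counted by list. Beside these counts, 0.00625% of all tested genes passed downwards and 0.0874% upwards without the block, and 0.706% and 1.71% with it. The list of other glutathione transferases also took in related genes such as Clic1, Clic4, Gdap1 and Alox5ap, and 23 of its genes were found. Of the 17 tested, 0 passed in the edgeR analysis without the block and 2 passed downwards with it. These were Gsta1 (33.3 ± 10.2 and 12.5 ± 4.26 CPM, SD, n = 4; edgeR adjusted p = 0.0875, and 0.00697 under the block) and Gsta2 (25.3 ± 8.71 and 7.09 ± 3.26 CPM; edgeR adjusted p = 0.0803, and 0.00102 under the block). Gsta1 and Gsta2, which are alpha class enzymes, also passed with DESeq2 (adjusted p = 0.00163 and 0.000299) and in edgeR without a filter (1.46e-06 and 1.92e-07). Gsta1 passed in edgeR without control library 1 (adjusted p = 0.0466), and under the block with 1 pair left out it passed in 2 of 4 fits and Gsta2 in 4 of 4. The median log2 change of these 17 was 0.04.

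Of 31 tested genes of glutathione synthesis, recycling and export, 0 passed in either fit, near the shares of all genes given above (median log2 change −0.05). Gclc, the catalytic subunit of the rate-limiting ligase, had 62.5 ± 9.75 and 59.9 ± 16.0 CPM (SD, n = 4; edgeR adjusted p = 0.974). Its modifier subunit Gclm had 26.7 ± 10.3 and 22.2 ± 3.14 CPM (edgeR adjusted p = 0.876). Gsr, which returns oxidised glutathione to its reduced form, had 21.4 ± 4.22 and 16.0 ± 4.45 CPM (edgeR adjusted p = 0.729).

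Among 16 tested peroxidases, peroxiredoxins and related enzymes, 0 passed in the edgeR analysis without the block and 1 passed upwards with it. This was Sod3, the extracellular superoxide dismutase, with 40.1 ± 14.3 CPM in control and 71.7 ± 10.0 CPM in Bmi1-deleted libraries (SD, n = 4; edgeR adjusted p = 0.218, and 0.0137 under the block). Sod3 also passed with DESeq2 (adjusted p = 0.0444), in edgeR without a filter (0.000207) and in edgeR without control library 1 (0.0254). Under the block with 1 pair left out it passed in 1 of 4 fits. The median log2 change of the 16 was −0.05.

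Among 26 tested NRF2 regulators and targets, 0 passed without the block and 1 passed upwards with it (median log2 change 0.00). This was Bach1, a repressor that competes with NRF2, with 407 ± 44.5 and 536 ± 81.1 CPM (SD, n = 4; edgeR adjusted p = 0.42, and 0.0478 under the block). With 1 pair left out under the block, Bach1 passed in 0 of 4 fits (edgeR adjusted p 0.0994 to 0.248), and on log2(TPM + 1) limma gave a log2 change of 0.07 (adjusted p = 0.979). Nfe2l2, which encodes NRF2, had 196 ± 33.7 and 167 ± 20.9 CPM (edgeR adjusted p = 0.746). Its inhibitor Keap1 had 17.7 ± 3.69 and 13.9 ± 3.26 CPM (edgeR adjusted p = 0.808). The target Nqo1, a quinone reductase, was low in both groups, at 1.83 ± 1.09 and 0.922 ± 1.11 CPM (edgeR adjusted p = 0.901).

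Of 8 tested JNK pathway genes, 0 passed in either fit, near the shares of all genes given above (median log2 change 0.02). Mapk8, which encodes JNK1, had 32.2 ± 6.59 and 30.7 ± 1.80 CPM (SD, n = 4; edgeR adjusted p = 0.969).

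The genes whose levels followed Gstp1 most closely over the 8 libraries, among 8731 compared, were Nek6, Tbc1d1 and Snx9. Their Pearson correlations with Gstp1 were 0.971, 0.970 and 0.967, given as a description over 4 libraries of each genotype, so that genes which differ between the groups as Gstp1 does rank high. For that reason no test of their difference is given. Tbc1d1, a GTPase-activating protein for Rab proteins, had 85.7 ± 21.3 CPM in control and 54.7 ± 11.9 CPM in Bmi1-deleted libraries (SD, n = 4). Snx9, a sorting nexin of endocytosis, had 130 ± 25.2 and 85.8 ± 13.1 CPM. The mitotic kinase gene Nek6 had 72.3 ± 9.03 and 60.9 ± 3.46 CPM. Gstm1 was followed most closely by Ercc2, Cdc42bpg and Tet2, with correlations of 0.947, 0.915 and 0.913.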

How the data were processed

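Per the labels, 1 ng of RNA from sorted cells went into each library, made with a stranded total RNA kit and 2 rounds of 15 PCR cycles, so counts include PCR copies. The authors deposited estimated counts per gene as whole numbers, made with Salmon 1.2.1 on mm10 per the submitters' processing notes, and log2 values of TPM plus 1. No source used here gives the annotation version or strand setting. GENCODE M21 gave names to 54166 of 54418 identifiers.

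Counts were filtered with filterByExpr, scaled by TMM over total library sizes and compared with the quasi-likelihood F test of edgeR 4.0.16 (R 4.3.3; robust, two-sided, all 8 libraries), with Benjamini-Hochberg adjustment over all genes tested and a threshold of 0.05. A first run that took library sizes over filtered genes gave the same numbers of calls. Alternatives used DESeq2 1.42.0 and limma 3.58.1. The code was tested on simulated counts in which 200 of 15294 genes, drawn from those with higher counts, were changed. The fit without a block recovered 41% of changes of log2 size 1 and 92% of size 2, with 10 false calls. A gene that did not pass may therefore still differ. Marker lists and members were chosen with earlier results of these data known. Named genes were the 10 members, listed pathway genes that passed with or without the block, fixed NRF2 and JNK genes, Bmi1, Cdkn2a, cluster neighbours and the 3 genes most like Gstm1 and Gstp1 by Pearson r of log2(CPM + 0.5) at a mean of at least 10 CPM.

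Replicate numbers come from sample titles. After centring within genotype, same-numbered libraries correlated across genes at 0.118, 0.167, 0.127 and 0.155. Each exceeded 0.1, although 4 of 8 libraries correlated best with another number. No label says what the numbers mark. They entered only as a block in alternative fits, and the analysis as reported had no block. Replicates of a group differed by more than counting noise (chi-square per degree of freedom 11.7 to 34.3).

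Coding sequences were compared over APPRIS principal transcripts. Lowest-numbered and longest transcripts were tried before and set aside, since the longest Gstm1 form has a longer coding sequence that lowers its identities. The TGAGTCA motif and the pseudogene sums were added after seeing the data.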

Additional observations from a re-analysis of the deposited data

Results flagged for a closer look

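In 24 groups of 4 libraries (the members' CPM and the class sums), the highest or lowest library was set against the others by Dixon's ratio, which chance passes in about 1 in 20 groups. In 3 groups a library stood apart, each time control library 4. Gstp1 was at 182 CPM there, with the next control library at 119 CPM. The pi class sum, of which Gstp1 is most, was at 197 CPM there, with the next at 123 CPM. Gstp3 was at 0.450 CPM there, from 4 counts, with the others at 0. With 3 libraries at 0 the ratio is 1 whatever the value of the fourth, so the Gstp3 result carries no information and does not count against the chance rate.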

How the results depend on the processing

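Gstp1 and the pi class sum kept their direction under all alternatives run. Genes higher numbered 14 in the analysis as reported, 106 with DESeq2, 259 without a filter, 273 with the replicate block, 24 with the fibroblast score, 30 with both, 1 with limma on log2(TPM + 1), 2 on log2(TPM + 0.1) and 0 on unfiltered TPM. Genes lower numbered 1 as reported, 3 with DESeq2 size factors, 52 with DESeq2, 3 with total count scaling, 121 without a filter, 2 at 10 CPM in 4 libraries, 113 with the replicate block, 7 with the fibroblast score, 16 with both and 0 with limma on unfiltered TPM. Leaving out 1 library gave 8 (without control 2) to 40 (without control 1) higher and 0 to 5 (without control 1) lower; under the block, leaving out pairs 1 to 4 in turn gave 264, 89, 153 and 126 higher and 87, 24, 85 and 66 lower. The mu sum log2 ratio moved from −0.09 to −0.36 in deposited TPM and ran from −0.15 to −0.05 without single libraries; the pi sum ran from −0.71 to −0.40. The causes were not tested. Besides the calls given in the report, and leaving aside the genes chosen for likeness to Gstp1, the block changed no call of a named gene. Cdkn2a did not pass with limma on log2(TPM + 1) (adjusted p = 0.0683, or 0.762 unfiltered). In edgeR with the score and the block, its log2 change was 8.38 with a standard error of 8377277, so that fit gave no usable test of Cdkn2a.

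Signs turned for genes that did not pass. With the fibroblast score, log2 changes were 0.0053 for Gstm1, −2.54 for Gstm7, −0.012 for Ahcyl1, 0.050 for Cdc42bpg, −0.59 for Csf1, 0.068 for Ercc2, 0.28 for Gclc, 0.66 for Gm49405, −0.079 for Gnai3 and 0.037 for Tet2. With the score and the replicate block they were −0.17 for Ampd2, 0.13 for Cdc42bpg, 0.22 for Gclc, −0.12 for Gnai3 and 0.18 for Mapk8. With the replicate block alone they were 0.14 for Gstm2 and −0.50 for Gstm7, and with inferred sex 0.063 for Gstm2 and 0.0060 for Ercc2. Total count scaling gave −0.011 for Ahcyl1. On log2(TPM + 1), filtered or not, limma gave −0.13 for Gstm7, −0.29 for Csf1, 0.093 for Ercc2, −0.14 for Gnai3 and −0.24 for Pitpnm1, and on log2(TPM + 0.1) 0.081 for Gstm2, −0.70 for Gstm7, −0.32 for Csf1, 0.14 for Ercc2, −0.15 for Gnai3 and −0.26 for Pitpnm1. Leaving out 1 library gave −0.56 to 0.37 for Gstm2, −1.37 to 1.05 for Gstm7, −0.0018 to 0.049 for Ahcyl1, −0.20 to 0.017 for Cdc42bpg, −0.19 to 0.27 for Csf1, −0.17 to 0.64 for Doc2g, −0.14 to 0.070 for Ercc2, −0.27 to 0.017 for Gclc, −0.60 to 0.16 for Gm49405, −0.018 to 0.16 for Gnai3, −0.17 to 0.072 for Mapk8, −0.024 to 0.15 for Pitpnm1 and −0.068 to 0.049 for Tet2. Under the replicate block, the turned values were, without pair 1, 0.45 for Gstm2, −2.28 for Gstm7 and −0.029 for Csf1. They were, without pair 2, −0.70 for Doc2g, 0.12 for Gm49405, 0.043 for Mapk8, −0.067 for Pitpnm1 and 0.030 for Tet2. They were, without pair 3, 0.34 for Gstm2 and 0.0029 for Gclc. They were, without pair 4, 0.43 for Gstm2 and 0.18 for Gstp2.

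Gstm7, at 0 counts in 2 libraries, gave a log2 change of −18.30 (SE 7.08, edgeR adjusted p = 0.339) with the block and the fibroblast score, and was left out of the ranges by a rule on coefficient size written after that value was seen. Genes below 10 CPM gave no value under that filter. Counts per library were 0 to 5 for Gstm3, 0 to 4 for Gstp3 and 0 to 10 for Gstm6, so counting error alone is large beside any difference between their groups.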
